A study of Mus musculus with 9 samples.

Results

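Collagens are the triple-helical proteins of the extracellular matrix, and each of their polypeptides is called a chain. The chain genes were taken as every gene whose symbol is Col, a number, a and a number, which gave 44 of the 49326 named genes in the count and TPM tables. By family, 11 chains were fibrillar, 6 were type IV (the collagen of basement membranes) and 27 belonged to other classes. These 27 held 6 chains of type VI, 9 fibril-associated chains, 3 short network chains of types VIII and X, 1 anchoring fibril chain, 2 multiplexins, 4 transmembrane chains and 2 unclassified chains.

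The libraries hold polyA+ RNA of undifferentiated mouse embryonic stem cells (day 0) and of embryoid bodies, the differentiating aggregates that they formed in hanging drops (day 4 and day 8). Wild-type cells gave 1 library per day. Cells labelled Hnrnpll-/-, after the gene of an RNA-binding protein known for regulating splicing in lymphocytes, gave 2 libraries per day, from lines labelled G6 and H8. The protein itself was not measured here. Stem cells of every line grew with serum and leukemia inhibitory factor (LIF), and no feeder cells are named. The mouse strain and the way the alleles were made are not given in the sources used here. Wild type is a single line, so genotype and line cannot be told apart. The p-values below, within a day or step, measure the spread between the 2 knockout lines. In the comparison over all days the error also holds genotype differences that change between days.

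Fibrillar collagens form the rope-like fibrils of connective tissue and are made chiefly by mesenchymal cells such as fibroblasts, bone and cartilage cells. Type IV chains assemble into the sheet on which epithelia and endothelia rest, together with laminin, nidogen and perlecan, and parietal endoderm lays down a thick sheet of this kind in the mouse embryo. Before a chain leaves the cell its prolines and lysines are hydroxylated and its folding is assisted by the chaperone Hsp47, and outside the cell its ends are trimmed and lysyl oxidases crosslink it.

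Counts per library ran from 54202944 to 184890212, with the day 0 knockout libraries the shallowest. Collagen chains took between 46773 and 534642 of these counts. Low counts (up to 40) fell on multiples of 4 in 43.5% and 42.6% of cases in the day 0 knockout libraries. Elsewhere the share was 30.5% to 33.2%, where chance gives 25%. Therefore 1 count cannot be taken as 1 independent fragment, and the cause was not tested. Hnrnpll RNA was still present in the knockout lines, at 24.5 to 61.2 TPM against 77.1 to 112 TPM in wild type, and none of its differences within a day passed the test. The stem cell label was checked against pluripotency markers (Pou5f1, Nanog, Sox2, Esrrb and Zfp42), which summed to 2491, 3917 and 3916 TPM at day 0 in wild type, G6 and H8. At day 8 they summed to 409 TPM in wild type and to 2613 and 2589 TPM in G6 and H8. By the test 5 of 5 were higher in the knockout at that day, against 5.01% of all genes.

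Collagen RNA was measured as TPM (a transcript level scaled to gene length and library size), so that chains can be set side by side. In wild type the summed level of the 44 chains was 669, 185 and 1346 TPM at day 0, 4 and 8. In line G6 it was 411, 371 and 610 TPM, and in line H8 264, 261 and 437 TPM. The wild-type library was thus the highest at day 0 and day 8 and the lowest at day 4. Of the 44 chains, 24 had their highest level of all libraries in wild type at day 8 and 9 in wild type at day 0. The shares of all genes with these peaks were not counted. At 10 TPM or more in at least 1 library stood 20 chains, which are described one by one. Of the other 24 chains, 17 reached 1 TPM and 7 (Col4a3, Col4a4, Col6a6, Col19a1, Col10a1, Col25a1 and Col28a1) stayed under 1 TPM in every library. All 44 passed the filter on low counts and were tested.

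**Figure D1:**
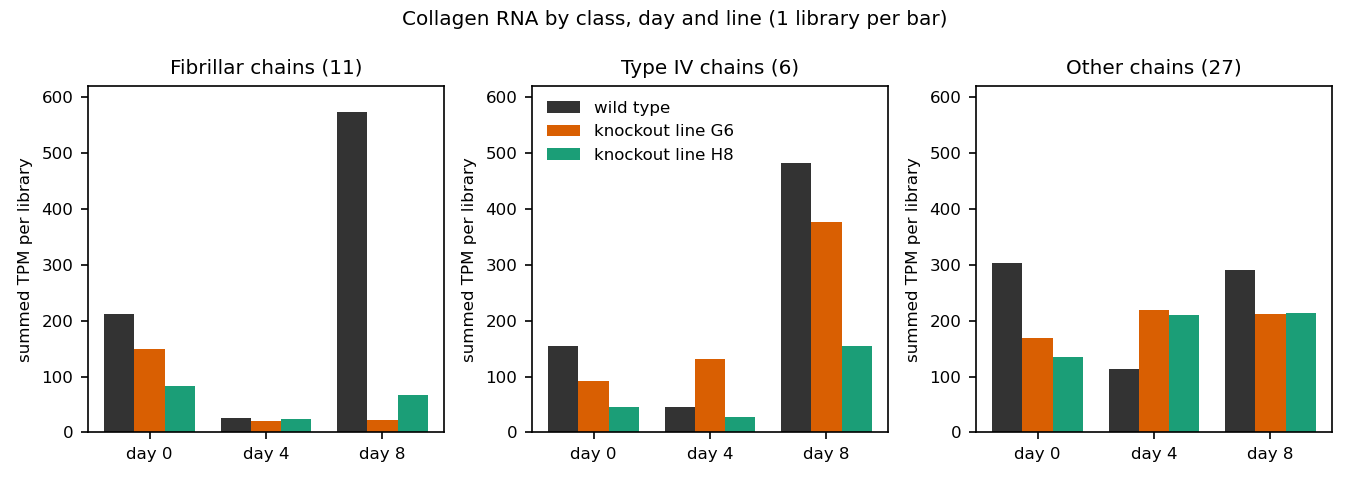
Summed TPM of the 11 fibrillar, 6 type IV and 27 other collagen chains (y axis) by day (x axis), with 1 bar per library for wild type, knockout line G6 and knockout line H8. The day 8 fibrillar bars stand at 573 TPM in wild type and at 22.4 and 67.3 TPM in the knockout lines, while the knockout lines hold the higher bars of the other chains at day 4.

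The 3 classes followed different courses. At day 0, 4 and 8 fibrillar RNA summed to 212, 26.1 and 573 TPM in wild type, to 149, 20.0 and 22.4 TPM in G6 and to 83.2, 24.2 and 67.3 TPM in H8. All 3 lines were low at day 4, and the lines parted at day 8, where the wild-type sum was 25.6 times that of G6 and 8.52 times that of H8. Type IV RNA summed to 154, 46.1 and 483 TPM in wild type, to 92.4, 132 and 376 TPM in G6 and to 45.6, 26.7 and 155 TPM in H8. The type IV sum was highest at day 8 in every line, and line H8 lay below G6 at each day. The other chains summed to 303, 113 and 290 TPM in wild type, to 169, 220 and 211 TPM in G6 and to 135, 210 and 215 TPM in H8. Type XVIII alone gave 45.4% to 81.2% of that class in each library. As a share of all collagen RNA, fibrillar chains made up 42.6% in wild type at day 8 and 3.67% and 15.4% in G6 and H8. These sums are a description without a test.

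**Figure D2:**
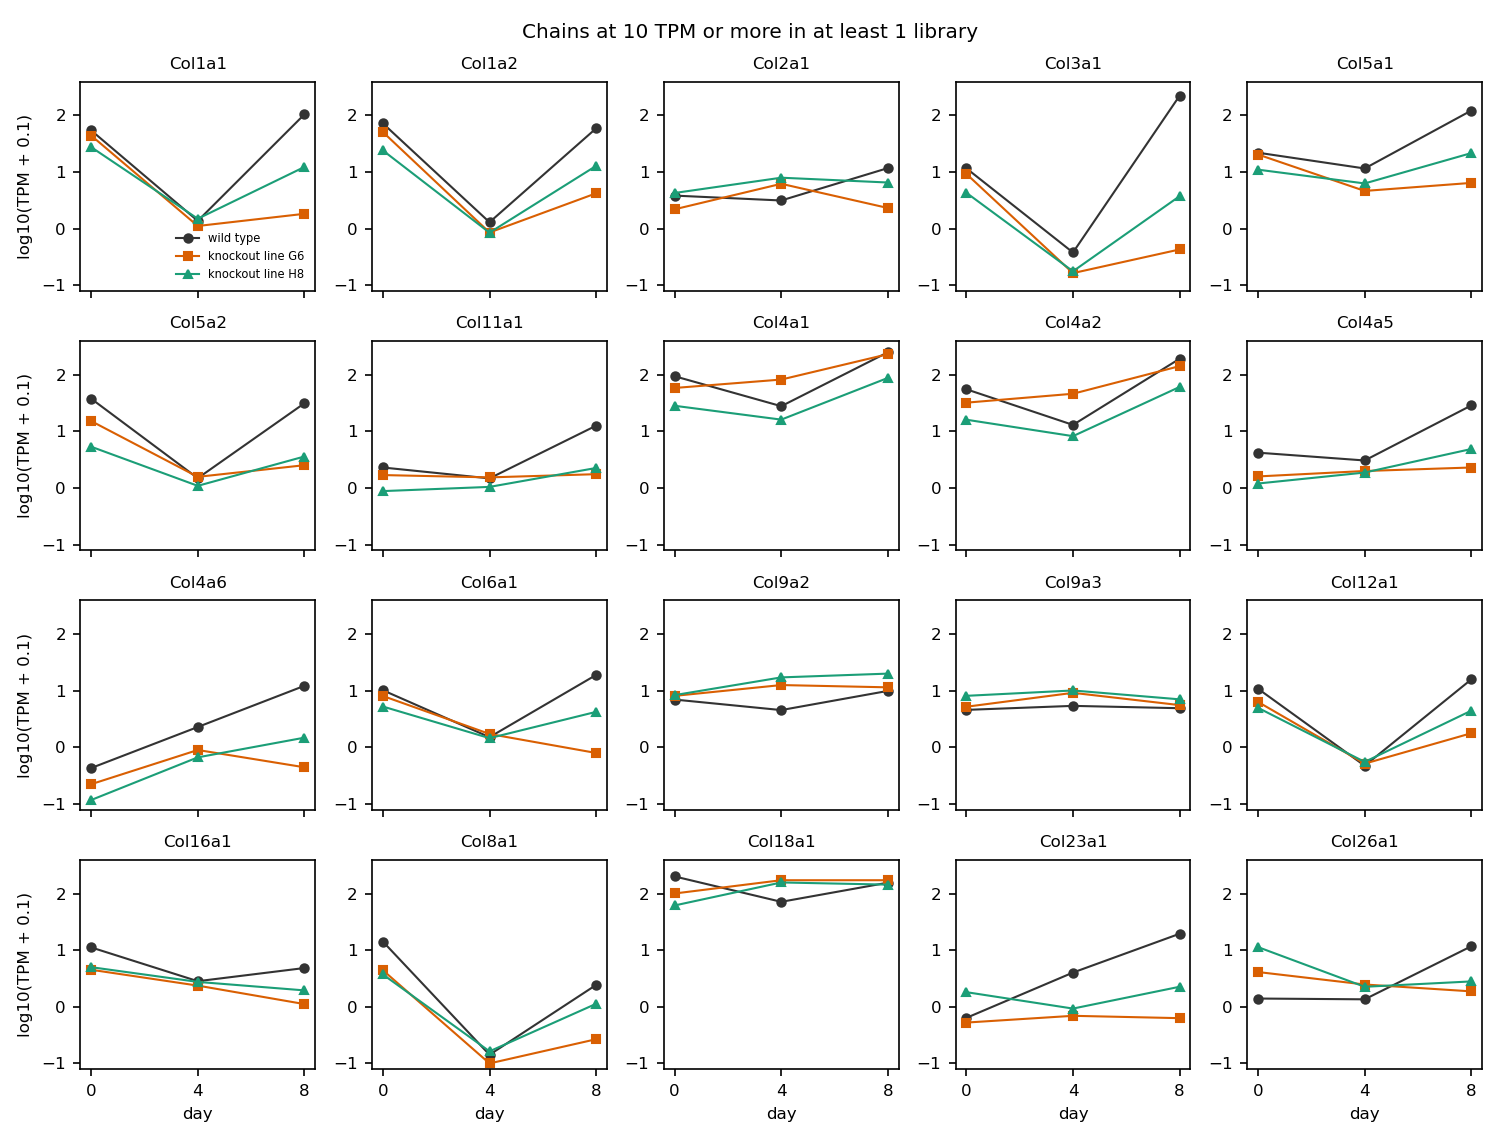
Level of each of the 20 chains at 10 TPM or more in at least 1 library, as log10(TPM + 0.1) on the y axis against day on the x axis, with 1 point per library and 1 line per cell line. The type I and type III chains dip at day 4 in all 3 lines, and at day 8 wild-type Col3a1 reaches 223 TPM against 0.331 and 3.66 TPM in G6 and H8.

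Among the fibrillar chains, the major fibril formers of types I and III had the widest range. Col1a1, which gives 2 of the 3 chains of type I collagen in bone and skin, stood in wild type at 54.5, 1.28 and 105 TPM at day 0, 4 and 8. Its levels were 44.2, 1.02 and 1.74 TPM in G6 and 27.6, 1.40 and 12.2 TPM in H8. Its partner Col1a2 (mm10 chromosome 6, 4504814 to 4541544, plus strand) was at 72.4, 1.20 and 59.2 TPM in wild type, 51.0, 0.758 and 4.13 TPM in G6 and 24.0, 0.753 and 12.8 TPM in H8. Both genes were high at day 0, low at day 4 in all lines, and high again in wild type at day 8. Col3a1 (chromosome 1, 45311538 to 45349706, plus strand), the chain of the fine fibrils of embryonic and vascular tissue, was at 11.6, 0.281 and 223 TPM in wild type. Levels of 9.22, 0.0647 and 0.331 TPM were measured in G6 and of 4.22, 0.0773 and 3.66 TPM in H8. At day 8 each knockout line lay far below wild type, and their own values lay apart from each other.

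Type V collagen sits inside type I fibrils and sets their width. Col5a1, its alpha 1 chain, was at 21.9, 11.5 and 122 TPM in wild type, 20.4, 4.55 and 6.35 TPM in G6 and 10.9, 6.21 and 21.6 TPM in H8. Col5a2 (chromosome 1, 45374321 to 45503282, minus strand), which lies 24614 bases from Col3a1, was at 37.8, 1.40 and 31.4 TPM in wild type, 15.2, 1.48 and 2.44 TPM in G6 and 5.28, 0.996 and 3.51 TPM in H8. Both of these type V chains had their lowest wild-type levels at day 4, as the type I chains did. The minor type V chain Col5a3 was lowest at day 8 in wild type, at 5.24, 0.512 and 0.380 TPM over the 3 days. Col2a1, the chain of cartilage fibrils, was at 3.75, 3.06 and 11.7 TPM in wild type, 2.11, 6.12 and 2.23 TPM in G6 and 4.18, 7.87 and 6.45 TPM in H8. At day 4 it was the most abundant fibrillar chain in both knockout lines, and the wild-type library lay below both. Col11a1, its minor partner in cartilage, was at 2.21, 1.38 and 12.6 TPM in wild type, 1.60, 1.45 and 1.66 TPM in G6 and 0.785, 0.950 and 2.17 TPM in H8. Col5a3, Col11a2, Col24a1 and Col27a1 ranged from 0.0418 to 5.24 TPM.

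Promoter windows are printed for the fibrillar chains Col1a2 and Col3a1, chosen after their levels were seen because they fell together by the test from day 0 to day 4 in the knockout lines. Each window runs from 250 bases before to 50 bases after the RefSeq start (GRCm38.p6, plus strand), chr6:4505368-4505667 for Col1a2 and chr1:45311288-45311587 for Col3a1. Capitals mark 3 short promoter motifs on either strand, CCAAT (the CCAAT box), TATAAA (the TATA box) and GGGCGG (the core of the GC box), and the marked matches do not overlap.
Col1a2: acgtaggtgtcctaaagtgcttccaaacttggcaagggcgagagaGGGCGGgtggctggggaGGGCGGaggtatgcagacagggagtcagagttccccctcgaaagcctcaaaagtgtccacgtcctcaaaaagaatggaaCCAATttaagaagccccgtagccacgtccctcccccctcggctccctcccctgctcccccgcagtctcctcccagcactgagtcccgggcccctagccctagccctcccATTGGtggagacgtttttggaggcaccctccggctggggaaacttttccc
Col3a1: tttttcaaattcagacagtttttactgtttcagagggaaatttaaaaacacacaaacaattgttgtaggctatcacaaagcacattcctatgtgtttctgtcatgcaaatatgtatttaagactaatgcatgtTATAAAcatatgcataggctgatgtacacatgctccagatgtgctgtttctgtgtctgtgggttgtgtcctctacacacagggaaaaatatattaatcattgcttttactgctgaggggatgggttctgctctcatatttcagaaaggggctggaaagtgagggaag
The Col1a2 window held 2 CCAAT and 2 GGGCGG matches and no TATAAA match, and the Col3a1 window held 1 TATAAA match alone. RefSeq windows were matched for 35 of the 44 chains (38 windows). Of these, 34.2% held CCAAT, 13.2% TATAAA and 60.5% GGGCGG, against 37.4%, 13.6% and 35.7% of all 32851 windows. A match is a string in this window and not a measured binding site.

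Type IV RNA was carried mainly by Col4a1 and Col4a2, which form the ubiquitous basement membrane network. Col4a1 (chromosome 8, 11198423 to 11312826, minus strand) was at 94.3, 27.8 and 249.9 TPM in wild type, 58.5, 82.4 and 231 TPM in G6 and 28.3, 16.1 and 88.1 TPM in H8. Col4a2 (chromosome 8, 11312805 to 11449287, plus strand) was at 55.5, 13.0 and 192 TPM in wild type, 32.1, 46.2 and 142 TPM in G6 and 16.0, 8.16 and 60.98 TPM in H8. At each day the 3 lines stood in the same order for both genes. G6 was highest at day 4, wild type was highest at day 0 and day 8, and H8 was lowest throughout. The Col4a1 level was 1.302 to 2.15 times the Col4a2 level over the 9 libraries (median 1.77). Over the same libraries the ratio of Col1a1 to Col1a2 ran from 0.421 to 1.86, and that of Col5a1 to Col5a2 from 0.579 to 8.24. The highest ratio was 1.65 times the lowest for the type IV pair, 4.43 times for the type I pair and 14.2 times for the type V pair.

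The 2 genes start head to head and their annotated ends overlap by 22 bases, so their windows are shown to let the shared stretch be seen. The windows are chr8:11312777-11313076 on the minus strand for Col4a1 and chr8:11312555-11312854 on the plus strand for Col4a2, each from 5′ to 3′ along its own strand, with the same motifs in capitals. They cover the same 78 bases from opposite strands.
Col4a1: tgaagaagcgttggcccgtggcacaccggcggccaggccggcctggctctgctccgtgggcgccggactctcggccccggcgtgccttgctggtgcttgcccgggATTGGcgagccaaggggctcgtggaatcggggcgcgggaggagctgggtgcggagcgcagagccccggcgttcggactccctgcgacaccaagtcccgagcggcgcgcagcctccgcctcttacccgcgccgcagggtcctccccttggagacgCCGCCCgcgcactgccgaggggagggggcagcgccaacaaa
Col4a2: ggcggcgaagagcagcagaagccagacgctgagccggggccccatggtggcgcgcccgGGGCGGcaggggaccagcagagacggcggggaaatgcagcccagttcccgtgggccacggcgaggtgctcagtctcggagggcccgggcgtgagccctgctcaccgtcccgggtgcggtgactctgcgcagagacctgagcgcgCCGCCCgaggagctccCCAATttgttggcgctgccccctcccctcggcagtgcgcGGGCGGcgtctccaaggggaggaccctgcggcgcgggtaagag
The Col4a1 window held 1 CCAAT match (read here as its complement) and 1 GGGCGG match, and the Col4a2 window held 1 CCAAT and 3 GGGCGG matches. Neither held TATAAA. Since the use of strand in counting is not given in the sources used here, reads from the overlap cannot be assigned, and the same doubt holds for the 28 chains that overlap another annotated gene.

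**Figure D3:**
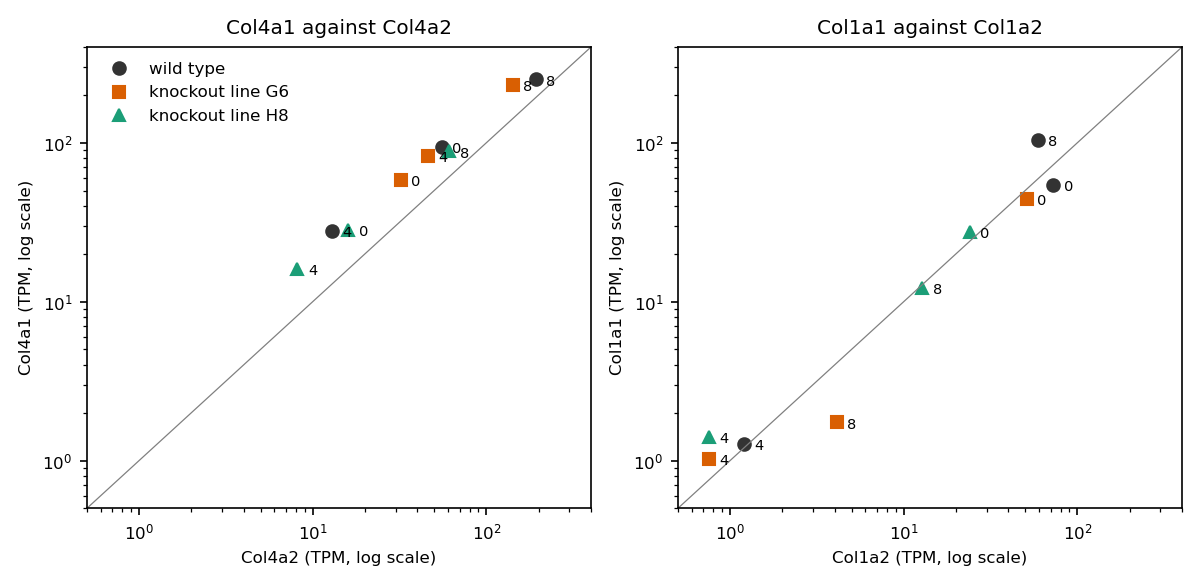
TPM of Col4a1 against Col4a2 (left) and of Col1a1 against Col1a2 (right), both axes on a log scale, with 1 point per library labelled by its day and a grey line where both levels are equal. Every type IV point lies above the line, at 1.302 to 2.15 times, while the type I points lie on both sides of it, at 0.421 to 1.86 times.

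The other type IV chains were lower. Col4a5, a chain of kidney and smooth muscle basement membrane, was at 4.12, 2.97 and 28.7 TPM in wild type, 1.51, 1.90 and 2.21 TPM in G6 and 1.10, 1.78 and 4.80 TPM in H8. Col4a6, which lies head to head with Col4a5 on chromosome X with 1308 bases between them, was at 0.333, 2.20 and 12.1 TPM in wild type, 0.124, 0.801 and 0.346 TPM in G6 and 0.0179, 0.568 and 1.39 TPM in H8. Wild type was above both knockout lines at each day for both genes. Their ratio ran from 1.35 to 12.4 in 8 libraries and was 61.6 in H8 at day 0, where Col4a6 had 4 counts. Col4a3 and Col4a4, chains of the kidney filter, did not exceed 0.171 TPM.

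At day 4 line G6 stood above H8 in Col4a1 and Col4a2 and also in most endoderm genes listed, while wild type did not follow one order. Lama1, a laminin chain of the early basement membrane, was at 4.25 TPM in wild type, 38.3 TPM in G6 and 3.60 TPM in H8. The parietal endoderm markers (Sox7, Sox17, Gata4, Gata6, Dab2, Pth1r and Thbd) summed to 69.5, 85.9 and 19.1 TPM in wild type, G6 and H8, with 5, 6 and 4 of 7 at 1 TPM or more, and none was listed at 0. The wild-type sum thus lay near that of G6, but single markers differed. Gata6 was at 27.7, 6.46 and 1.13 TPM and Sox17 at 15.0, 8.85 and 0.462 TPM in wild type, G6 and H8. Wild type was nearer to H8 in Dab2 (11.3, 42.2 and 9.63 TPM), Sox7 (0.381, 4.02 and 0.680 TPM) and Gata4 (9.28, 16.5 and 4.70 TPM). It was nearer to G6 in Pth1r (5.79, 7.64 and 2.40 TPM). The wild-type Col4a1 level of 27.8 TPM was nearer to H8 (16.1 TPM) than to G6 (82.4 TPM). The visceral endoderm markers (Afp, Ttr, Apoa1, Apob, Amn and Cubn) summed to 6.52, 40.5 and 7.13 TPM with 3, 4 and 4 of 6 at 1 TPM or more. Cubn (1.51, 23.5 and 1.40 TPM) and Amn (1.48, 12.0 and 2.32 TPM) made up most of the G6 sum. In G6 and H8, Ttr (1.65 and 1.01 TPM), Apob (2.48 and 1.60 TPM) and Apoa1 (0.758 and 0.689 TPM) stood closer together. Afp was lower in G6 (0.0899 TPM) than in H8 (0.112 TPM). In bulk RNA, fewer cells of a type and less RNA per cell cannot be told apart, and the part of these cell types in the collagen levels was not tested.

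At day 0 the knockout stem cells had less RNA of 3 chains outside the fibrillar and type IV classes. Col6a5 (a minor type VI chain) was at 9.45 TPM in wild type and at 1.499 and 0.446 TPM in G6 and H8. Col7a1, the anchoring fibril chain that ties basement membrane to skin, was at 9.97 TPM in wild type and at 3.96 and 2.23 TPM in G6 and H8. Col18a1, a heparan sulfate collagen of basement membranes whose end is cleaved to endostatin, was at 200.1 TPM in wild type and at 100.02 and 61.4 TPM in G6 and H8. In each case both knockout libraries lay below wild type. The log2 differences were -3.72 (SE 0.75) for Col6a5, -1.84 (SE 0.34) for Col7a1 and -1.36 (SE 0.22) for Col18a1, with adjusted p = 0.0482, 0.0395 and 0.0260 in edgeR's quasi-likelihood test. No chain was called higher. Of all 24794 genes tested, 5.43% were called at day 0 (4.33% lower and 1.11% higher), so that 3 of 44 chains is close to the background. The median log2 difference was -0.80 over the 44 chains and -0.019 over all genes, and 33 chains had a negative sign.

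Most chains at day 0 were thus not separated by the test. Col1a1 differed by -0.62 (SE 1.04), Col3a1 by -0.77 (SE 1.12) and Col5a2 by -2.10 (SE 0.57) on the log2 scale, with adjusted p = 0.761, 0.721 and 0.0916 in edgeR. The mesenchyme markers (Pdgfra, Pdgfrb, Prrx1, Twist1, Thy1, Lum, Dcn and Postn) were present at day 0 beside the type I chains. They summed to 65.4, 48.5 and 28.4 TPM in wild type, G6 and H8, with 7, 7 and 5 of 8 at 1 TPM or more and with Lum at 0 in both knockout lines. At day 4 the sums were 46.7, 27.4 and 27.1 TPM with 4 of 8 in each. Within the wild-type sum, Postn went from 17.2 to 0.130 TPM, Prrx1 from 9.78 to 0.120 TPM and Dcn from 7.58 to 0.169 TPM. Pdgfra (4.47 to 26.9 TPM) and Twist1 (4.77 to 11.2 TPM) rose there, and the remaining markers fell. In the knockout lines 1 of 8, Prrx1, was called lower from day 0 to day 4, where 5.16% of all genes fell. The part of these cells in the day 0 collagen levels was not tested. Leaving out 1 library moved the calls of chains and of all genes. The day 0 count was 0 without G6 or H8 of day 4 or H8 of day 8, fits in which 376, 374 and 565 genes were called in place of 1347. None of these libraries is one that the day 0 test compares. The count was 1 without day 8 G6 (591 genes), 2 without day 0 H8 (1399 genes) and 6 without day 0 G6 (1625 genes). DESeq2 called 7 chains (16.7% of its genes), limma-voom 3 (3.82% of genes) and the block of line 2 (1239 genes). That block sets the fitted level of G6, not the knockout mean, against wild type. With the line as a block Col7a1 did not pass (adjusted p = 0.0567), and Col6a5 did not pass with total count scaling (0.0534) or over protein-coding genes (0.0665), nor Col7a1 (0.0844) and Col18a1 (0.0534) in limma on log2(TPM + 1).

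Within the knockout course, collagen RNA changed between day 0 and day 4. Type I, type III and several of their associated chains fell, whereas a few low chains and Col18a1 rose. The log2 changes were -5.13 (SE 1.03) for Col1a1, -5.97 (SE 0.75) for Col1a2 and -6.47 (SE 1.25) for Col3a1 (edgeR, adjusted p = 0.0271, 0.00698 and 0.0242). Col5a2 fell by 2.88 (SE 0.52, adjusted p = 0.0198 in edgeR). Col6a3, the large type VI chain that builds beaded filaments around connective tissue cells, had levels of 6.81 TPM (G6) and 2.72 TPM (H8) at day 0 and of 0.0423 and 0.172 TPM at day 4, and fell by 6.02 (SE 0.79, adjusted p = 0.00804 in edgeR). Col12a1, which coats the surface of type I fibrils, was at 6.26 and 4.90 TPM and then at 0.418 and 0.455 TPM, and fell by 3.69 (SE 0.59, adjusted p = 0.0146 in edgeR). The 2 days did not overlap for either gene.

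Col8a1, a network chain of vascular and corneal matrix, had 641 and 617 counts at day 0 and 0 and 26 counts at day 4 in G6 and H8, and was called lower (edgeR, adjusted p = 0.0321). Col15a1, the multiplexin of muscle and vessel basement membrane, fell by 1.74 (SE 0.40, adjusted p = 0.0386 in edgeR). In the other direction Col18a1 went from 100.02 and 61.4 TPM to 172 and 157 TPM, a rise of 1.06 (SE 0.19) with adjusted p = 0.0187 in edgeR. Col27a1, Col22a1 and Col8a2 were called higher too, at log2 differences of 1.37, 1.56 and 2.61 and levels of 0.590 to 2.03 TPM at day 4. No type IV chain was called. In all, 8 chains were called lower and 4 higher. Over all genes 14.7% were called (5.16% lower and 9.56% higher), and the median was 0.14 for the chains and 0.060 for all genes.

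In wild type, with 1 library a day and no test, 17 of the 20 more abundant chains had their lowest level at day 4 and 14 had their highest at day 8. Line H8 had 12 of the 20 lowest at day 4 and G6 had 8. Such shares were not counted over all genes. In edgeR the knockout step from day 0 to day 4 was tested against the wild-type step. No chain was called, against 0.504% of all genes. The unadjusted p was under 0.05 for 6 of 44 chains and for 4267 of 24794 genes. DESeq2 called 3 chains (8.86% of its genes) and limma-voom 0. Col18a1 had the smallest p in that comparison, with 200.1 TPM at day 0 and 71.2 TPM at day 4 in wild type against a rise in both knockout lines, a difference in step of 2.28 (SE 0.32, adjusted p = 0.0565 in edgeR). Without day 4 G6 or day 4 H8 none of the 12 calls of the knockout step passed, with 748 and 703 genes called in place of 3650, and 10 and 8 chains were called without day 0 G6 and without day 0 H8. In limma-voom Col3a1 (0.0543), Col8a1 (0.0561), Col22a1 (0.0508) and Col8a2 (0.118) did not pass in that step, nor did Col27a1 (0.0540) and Col15a1 (0.0791) in limma on log2(TPM + 1). In all limma-voom called 8 chains (12.9% of genes) and DESeq2 18 (26.0% of its genes). With line as a block 14 chains were called (15.3% of genes), the same 12 with Col5a3 (-1.14, adjusted p = 0.0342) and Col13a1 (-2.19, 0.0261), both lower.

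At day 4 no chain was called between knockout and wild type in edgeR, where 0.00807% of all genes were called. The unadjusted p was under 0.05 for 10 of 44 chains and for 3352 of 24794 genes. DESeq2 called 6 chains (6.45% of its genes) and limma-voom 0. The fibrillar sums were 26.1 TPM in wild type and 20.0 and 24.2 TPM in G6 and H8. By normalised counts both knockout lines lay below wild type for 9 of 11 chains and above it for 2. The median log2 difference was -0.50 over these chains and 0.069 over all genes. By TPM wild type lay above both lines for 5 chains, between them for 4 and below both for 2. The shares of all genes in these orders were not counted. Col11a2, lower in both lines by either measure, was at 2.34 TPM in wild type and at 0.591 and 0.956 TPM in the knockout lines. Col18a1 was at 71.2 TPM in wild type and at 172 and 157 TPM in G6 and H8 (log2 difference 0.92, SE 0.24, adjusted p = 0.218 in edgeR). Col9a2, a chain of the type IX collagen on cartilage fibrils, was at 4.47 TPM in wild type and at 12.5 and 17.2 TPM in G6 and H8 (1.67, SE 0.44, adjusted p = 0.227 in edgeR). For both genes the knockout libraries lay above wild type without reaching the threshold.

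At day 8 the knockout bodies had less collagen RNA, chiefly of fibrillar chains. Of 44 chains 9 were called lower and 1 higher, against 9.87% of all genes called (4.86% lower and 5.01% higher). The median log2 difference was -1.53 over the chains and 0.075 over all genes. It was -2.60 over the fibrillar chains, -0.65 over the type IV chains and -1.21 over the others. Both knockout lines lay below wild type for 10 of 11 fibrillar chains, and the share of all genes in that order was not counted. The exception was Col5a3, a minor type V chain, at 0.380 TPM in wild type and 1.25 and 2.30 TPM in G6 and H8 (2.31, SE 0.62, adjusted p = 0.0700 in edgeR).

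**Figure D4:**
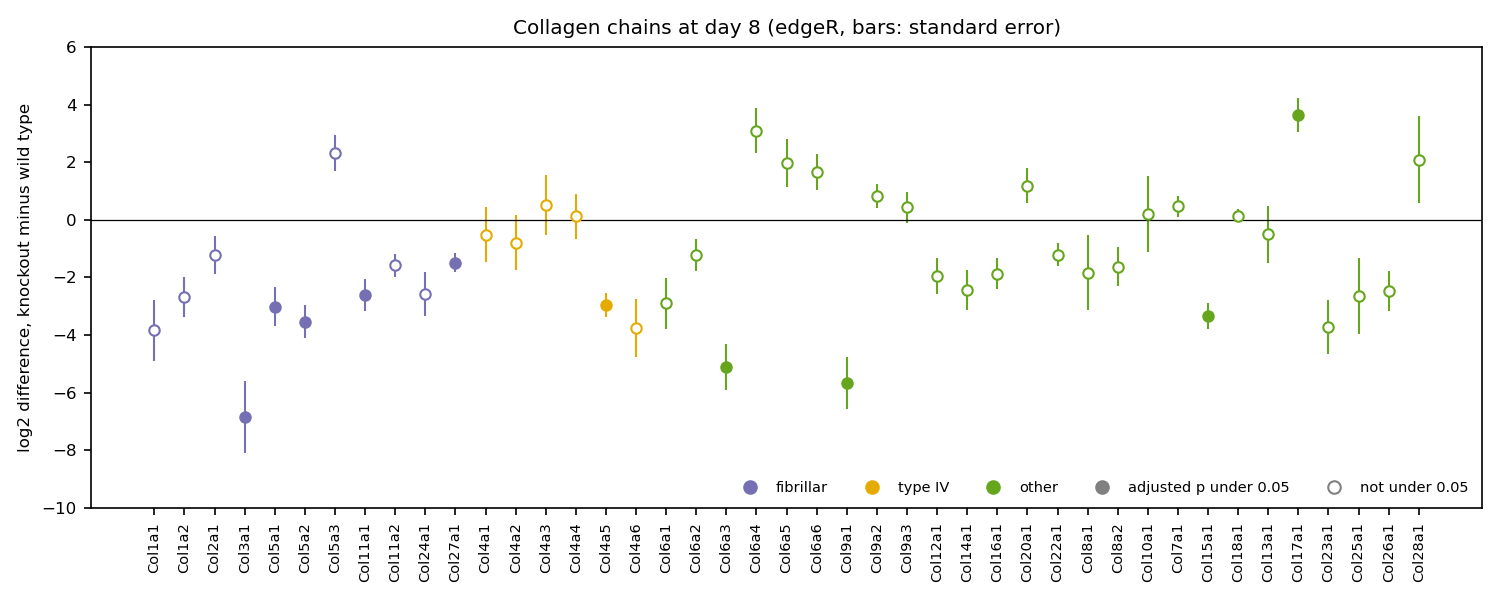
Log2 difference of knockout minus wild type at day 8 from edgeR (y axis, bars give the standard error) for 43 collagen chains (x axis, Col19a1 has no counts at day 8), coloured by class, with filled points for adjusted p under 0.05. The lowest point is Col3a1 at -6.85, and Col17a1 at 3.65 is the filled point above 0.

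Among fibrillar chains 5 of 11 were called, all lower. Col3a1 differed by -6.85 (SE 1.25), Col5a1 by -3.01 (SE 0.67) and Col5a2 by -3.54 (SE 0.58) on the log2 scale (edgeR, adjusted p = 0.0307, 0.0457 and 0.0258), from the levels given above. Col11a1 differed by -2.60 (SE 0.56) and Col27a1, a chain of cartilage matrix, by -1.48 (SE 0.33), with adjusted p = 0.0421 and 0.0436 in edgeR. Col27a1 was at 4.09 TPM in wild type and at 1.48 and 1.45 TPM in G6 and H8. The type I chains did not reach the threshold, Col1a1 with -3.84 (SE 1.05, adjusted p = 0.0710) and Col1a2 with -2.68 (SE 0.71, adjusted p = 0.0662) in edgeR. For both genes each knockout line lay below wild type, with H8 above G6.

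Of the type IV chains Col4a5 alone was called, with a log2 difference of -2.96 (SE 0.41, adjusted p = 0.0211 in edgeR). Col4a6 differed by -3.77 (SE 1.001, adjusted p = 0.0671). Col4a1 and Col4a2 differed by -0.51 (SE 0.95) and -0.79 (SE 0.95), with adjusted p = 0.762 and 0.624 in edgeR. For both genes G6 lay near wild type and H8 below it, and the missed threshold does not show that the levels were alike.

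In the remaining classes 3 chains were called lower. Col6a3 was at 8.66 TPM in wild type and at 0.0968 and 0.350 TPM in G6 and H8 (-5.11, SE 0.79, adjusted p = 0.0237 in edgeR). Col9a1, the chain that with Col9a2 and Col9a3 makes type IX collagen, was at 7.40 TPM in wild type and at 0.0430 and 0.173 TPM in G6 and H8 (-5.67, SE 0.90, adjusted p = 0.0246 in edgeR). Col15a1 was at 3.06 TPM in wild type and at 0.420 and 0.275 TPM in G6 and H8 (-3.35, SE 0.46, adjusted p = 0.0211 in edgeR). The knockout and wild-type levels of all 3 stood well apart.

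Type IX illustrated how unevenly the partners of 1 protein were expressed. While Col9a1 was called lower, Col9a2 was at 9.86 TPM in wild type and at 11.4 and 20.0 TPM in G6 and H8, and Col9a3 at 4.83 TPM and at 5.49 and 6.97 TPM. Their log2 differences were 0.82 (SE 0.42) and 0.43 (SE 0.53), and neither passed (edgeR, adjusted p = 0.251 and 0.634). Within type VI, Col6a1 was at 19.0 TPM in wild type and at 0.698 and 4.15 TPM in G6 and H8 (-2.90, SE 0.89, adjusted p = 0.0905 in edgeR). Col6a5 had the opposite sign to its day 0 difference, at 0.281 TPM in wild type and 2.26 and 1.92 TPM in G6 and H8 (1.97, SE 0.85, adjusted p = 0.184 in edgeR).

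Col17a1, the transmembrane collagen of epithelial hemidesmosomes, was the chain called higher. It was at 0.463 TPM in wild type and at 2.08 and 2.11 TPM in G6 and H8, and had 44 counts in wild type and 768 and 690 in the knockout lines. The log2 difference was 3.65 by counts (SE 0.59, adjusted p = 0.0257 in edgeR) and 2.18 between the mean TPM values, so the size depends on the table read. Among chains at 10 TPM or more, Col12a1 was at 15.8 TPM in wild type and at 1.68 and 4.36 TPM in G6 and H8, Col23a1 at 19.4 TPM and at 0.530 and 2.16 TPM, and Col26a1 at 11.6 TPM and at 1.77 and 2.70 TPM. Each lay below wild type in both lines and missed the threshold (edgeR, adjusted p = 0.0995, 0.0614 and 0.0761). Col16a1 was at 4.73 TPM and at 1.02 and 1.85 TPM, and Col8a1 at 2.33 TPM and at 0.167 and 1.03 TPM. Col18a1 was nearly level at 155 TPM in wild type and 172 and 143 TPM in G6 and H8 (0.15, SE 0.23, adjusted p = 0.713 in edgeR).

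At day 8 the summed markers of several cell types were highest in the wild-type library, though single markers went the other way. Over all genes 4.86% were called lower and 5.01% higher at that day. The mesenchyme markers summed to 576 TPM in wild type with 8 of 8 at 1 TPM or more, and to 23.7 and 36.2 TPM in G6 and H8 with 4 and 6 of 8, and Lum was at 0 in G6. Of these, Dcn, Pdgfrb, Prrx1 and Twist1 were called lower and none higher. Postn, which was not called, gave 315 of the 576 TPM in wild type. Thy1 was at 3.98 TPM in wild type and at 6.43 and 6.63 TPM in G6 and H8. The parietal endoderm markers summed to 386 TPM in wild type and to 86.6 and 67.4 TPM in G6 and H8. Of 7 markers, 7, 6 and 7 were at 1 TPM or more, and none was called. Dab2 gave 237 of the 386 TPM in wild type. The visceral endoderm markers summed to 365, 42.7 and 50.4 TPM with 6 of 6 in each, and 2 were called lower. Cardiac markers summed to 118, 4.87 and 7.90 TPM with 3 of 5 called lower, while Actn2 stood at 1.43, 1.95 and 3.08 TPM. Endothelial markers summed to 187, 63.7 and 59.0 TPM with 3 of 4 tested called lower, while Pecam1 stood at 21.1, 49.0 and 41.6 TPM. Cartilage markers summed to 34.9, 6.66 and 9.30 TPM with Hapln1 (26.9 of the 34.9 TPM) called lower and Acan higher, and their median log2 difference was 0.097. Neural markers summed to 67.4, 26.4 and 41.4 TPM with Nes called lower, 1 of 4, and a median of 0.12, and Pax6 and Sox1 were higher in both knockout lines without passing the test. The part of these cell types in the collagen differences was not tested.

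The calls at day 8 moved with single libraries, for chains and for all genes. The count of 10 was 0 without day 4 G6, day 4 H8 or day 8 G6, fits in which 0, 0 and 2 of all genes were called in place of 2446. It was 9 without day 8 H8 (562 genes), and 17 without day 0 G6 and without day 0 H8 (4216 and 4249 genes). DESeq2 called 25 chains (24.4% of its genes) and limma-voom 21 (15.2% of genes). With the line as a block, the fitted level of G6, not the knockout mean, was set against wild type. In that fit 15 chains were called, 12 lower and 3 higher (10.9% of genes). Col5a1 (adjusted p = 0.0517) and Col11a1 (0.0636) did not pass there. Gained as lower were Col2a1 (-1.91, 0.0336), Col11a2 (-1.77, 0.0490), Col14a1 (-3.05, 0.0279), Col23a1 (-4.74, 0.0209) and Col26a1 (-2.91, 0.0487), and as higher Col5a3 (1.85, 0.0329) and Col6a4 (3.47, 0.0233). Col5a1, Col11a1 and Col27a1 did not pass with total count scaling (0.0519, 0.0518 and 0.0540). Col27a1 also did not pass without the low-count filter (0.0571) or in limma on log2(TPM + 0.1) (0.0769).

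From day 4 to day 8 no chain was called within the knockout course in edgeR, where 0.311% of all genes were called. The unadjusted p was under 0.05 for 8 of 44 chains and for 3283 of 24794 genes. DESeq2 called 5 chains, all higher (7.30% of its genes), and limma-voom 0. Col1a2 differed by 3.73 (SE 0.68, adjusted p = 0.0942) and Col12a1 by 3.07 (SE 0.58, adjusted p = 0.1004) in edgeR. The difference between the knockout and the wild-type step was not called for any chain or any gene in edgeR (0% of genes). Unadjusted, 9 of 44 chains and 4041 of 24794 genes had a p under 0.05. DESeq2 called 6 chains (7.53% of its genes) and limma-voom 0. The median difference between the steps was -1.38 over the chains and 0.0073 over all genes, and 34 chains had a negative sign. Col15a1 had the smallest p (-4.67, SE 0.72, adjusted p = 0.122 in edgeR).

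Over all days together no chain passed in edgeR's additive model of day and genotype, against 0.984% of all genes called. The unadjusted p was under 0.05 for 21 of 44 chains and for 4877 of 24794 genes. The median log2 difference was -0.94 over the chains and -0.016 over all genes. Col4a5 (-1.85, SE 0.39) and Col4a6 (-2.73, SE 0.63) had the smallest adjusted p (0.0639 and 0.0724 in edgeR). DESeq2 called 18 chains (14.6% of its genes) and limma-voom 5 (3.57% of genes). When line entered limma-voom as a block, with an estimated correlation of -0.19 that narrows the error, 21 chains were called, 16 lower and 5 higher, against 17.7% of genes. These included Col5a2 (-2.35, adjusted p = 0.00570), Col4a5 (-2.01, 0.00596) and Col4a6 (-3.10, 0.00457) in limma. Without the day 0 libraries, an alternative chosen after seeing the data, no chain was called.

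Genes that make and modify collagen were counted from lists chosen with earlier results of these data known. At day 8, 5 of 20 modification, folding and export genes were called lower and none higher, where 4.86% of all genes were lower and 5.01% higher. Serpinh1, which encodes the collagen chaperone Hsp47, was at 686 TPM in wild type and at 139 and 201 TPM in G6 and H8 (-1.90, SE 0.24, adjusted p = 0.0200 in edgeR). P4ha1, a catalytic subunit of prolyl 4-hydroxylase, was at 72.0 TPM and at 21.0 and 25.8 TPM (-1.54, SE 0.30, adjusted p = 0.0335 in edgeR). Both lay below wild type in both lines. P4ha3, P3h2 (a prolyl 3-hydroxylase) and Creb3l1 (a transcription factor of collagen-secreting cells) were called lower, at -4.25, -3.64 and -2.19. Plod2, a lysyl hydroxylase, differed by -0.99 (SE 0.61, adjusted p = 0.329 in edgeR). The median of the list was -0.99 against 0.075 over all genes.

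Of 14 processing and crosslinking genes at day 8, Loxl2 (-2.70) and Pxdn (-2.20), whose product crosslinks type IV collagen, were called lower. Pcolce2 (2.36), which enhances procollagen trimming, was called higher. Over all genes 4.86% were lower and 5.01% higher at that day. Lox, the lysyl oxidase of fibrillar collagen, was high at day 0 and low at day 4, as the type I chains were, and stayed low in wild type at day 8. Its levels were 97.8, 0.204 and 1.19 TPM in wild type, 28.6, 0.848 and 0.263 TPM in G6 and 38.3, 0.499 and 0.980 TPM in H8. From day 0 to day 4 in the knockout lines Lox fell by 5.65 (SE 0.63, adjusted p = 0.00502 in edgeR), and Pcolce (-3.46), Pcolce2 (-1.57) and Loxl3 (-2.21) fell too while Pxdn (1.97) rose, 4 of 14 down and 1 up. In that step, where 5.16% of all genes fell and 9.56% rose, 3 of 20 modification genes fell, among them Fkbp14 (-1.57) and Plod1 (-1.36), and 2 rose, with P3h2 at 3.40, so that the share that rose was near the background. At day 0 Pxdn (-1.24) was called lower than wild type, 1 of 14 genes in its list and 0 of 20 in the other. Over all genes 4.33% were lower at that day, so these shares were near the background.

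Of 16 basement membrane partners at day 8, Nid1 (-1.18), Lama4 (-3.61) and Lama2 (-3.68) were called lower and Lama3 (2.001) higher. Over all genes 4.86% were lower and 5.01% higher. Nid1, the nidogen that links laminin to type IV collagen, was at 77.1, 9.20 and 175 TPM in wild type, 91.7, 21.8 and 67.6 TPM in G6 and 113, 15.8 and 74.5 TPM in H8. It fell from day 0 to day 4 in the knockout lines (-2.46, SE 0.21, adjusted p = 0.00242) and rose from day 4 to day 8 (1.93, SE 0.21, adjusted p = 0.0367 in edgeR). Hspg2 (perlecan) fell in the first of these steps (-0.63, adjusted p = 0.0397 in edgeR), and Lama5 (0.72) and Lamc3 (2.90) rose. In that step 2 of 16 partners fell and 2 rose, against 5.16% and 9.56% of all genes. The share that rose was near the background. At day 8 Lama1 had 42.0 TPM in wild type, 100.4 TPM in G6 and 26.4 TPM in H8, Lamb1 had 227 TPM and then 157 and 82.9 TPM, and Lamc1 had 157 TPM and then 221 and 130 TPM. Sparc, a collagen-binding matrix protein, was at 768 TPM and at 460 and 325 TPM. None of these 4 passed the test at day 8 (edgeR, adjusted p from 0.189 to 0.757).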

How the data were processed

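RNA-seq of 9 polyA+ libraries was analysed. HISAT2 2.0.5, StringTie 1.3.3b and mm10 are named, per the submitters' processing notes, while their roles, the annotation and whether counting used strand are not given in the sources used here. Per gene the authors deposited unscaled read counts in whole numbers. TPM per gene were deposited too. In every library 259 entries without a gene name (0.0242% to 0.0398% of counts) were left out, and 15 named genes, no collagen among them, have no TPM. Coordinates came from GENCODE M21, which holds all 49326 named identifiers.

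A gene was tested if 2 or more libraries reached the CPM that 10 counts make in the median library (0.079). After TMM normalisation the test was edgeR 4.0.16 (quasi-likelihood, R 4.3.3, two-sided, Benjamini-Hochberg over 24794 genes, threshold 0.05). Of 8 comparisons, 7 came from a model with 6 group means (3 residual degrees of freedom, biological coefficient of variation 0.348). Its spread comes from the 2 knockout lines, and single wild-type libraries are taken to vary like them. The other used day and genotype as additive terms (5 residual degrees of freedom, biological coefficient of variation 0.494). Its error also holds genotype differences that change between days. The day 8 comparison of the model with 6 group means was also run on simulated counts with 200 changed genes. Those counts had a smaller coefficient of variation than the data and no difference between lines. That run therefore does not give the error rates of the tests here. Reads carry no molecular identifiers, so errors of the model with group means cover the spread between lines alone.

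Same-numbered knockout samples are the same line, so line was also fitted as a block. In the model of group means the block is a term for H8. Its comparisons with wild type within a day therefore read the fitted level of G6. Differences of H8 from G6 were correlated between days across 16296 genes (r 0.13 to 0.35, genes are not independent). Alternatives were other scalings, no filter, DESeq2 1.42.0, limma 3.58.1 (voom, and log2 of TPM plus 1 or 0.1), protein-coding genes alone, each library left out and each line alone.

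The members, classes and lists were chosen with earlier results of these data known. Levels are printed for chains at 10 TPM or more in at least 1 library and for chains that passed a test. Of each pathway list up to 4 called genes are named, those with the largest difference, and 10 fixed genes.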

Additional observations from a re-analysis of the deposited data

How the results depend on the processing

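The number of collagen chains called was 3, 0 and 10 for knockout minus wild type at day 0, 4 and 8, and 12 for the knockout step from day 0 to day 4. No chain was called in the knockout step from day 4 to day 8, in either difference between steps or over all days. With DESeq2, which also called more of all genes (3737, 1320 and 5455 at day 0, 4 and 8), the counts were 7, 6 and 25 at these days, 5 in the knockout step from day 4 to day 8, 3 and 6 in the differences between steps and 18 over all days. With limma-voom 21 chains were called at day 8 (3769 genes) and 5 over all days (885 genes). With log2(TPM + 1) the counts were 1 at day 0 (1878 genes), 19 at day 8 (3060 genes) and 1 for the difference in the later step. With log2(TPM + 0.1) the count was 1 at day 0 (1804 genes). Protein-coding genes alone gave 1 at day 0 (429 genes) and 1 over all days, and no filter gave 1 for the difference in the earlier step. Over all days the replicate block gave 21 (4389 genes) and the mean of the contrasts within a day gave 13, and each line alone gave 0. Where no total or share of genes is given for a count, a change in the chains cannot be told from a change over all genes. The cause of these changes was not tested. The replicate block also gave 2, 15 and 14 chains at day 0, at day 8 and in the earlier knockout step, with the chains gained and lost within a day or step named beside the results. Its counts at day 0 and day 8 are for the fitted level of G6 against wild type.

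Leaving out each library in turn gave 0 to 6 chains at day 0, 0 at day 4, 0 to 17 at day 8, 0 to 12 in the earlier knockout step, 0 in the later one, 0 to 1 and 0 in the differences between steps and 0 to 2 over all days. Leaving out a knockout library also removes a residual degree of freedom, and in the fits with 0 chains at day 0 or day 8 between 0 and 565 of all genes were called. Each of the 25 calls was lost without either day 4 knockout library. In the 9 settings that keep all libraries 13 of the 25 held throughout, and no value reversed. The spread rests on 2 lines and wild type on 1 library a day, and the day 0 knockout libraries were the shallowest.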

Other observations

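Collagen receptors and the enzymes that degrade collagen were counted in the same way. At day 8, where 4.86% of all genes were called lower and 5.01% higher, 2 of 10 receptor genes were called lower and none higher. Itgb1, the beta 1 subunit shared by the collagen-binding integrins, was at 525 TPM in wild type and at 147 and 152 TPM in G6 and H8 (log2 difference -1.67, SE 0.18, adjusted p = 0.0175 in edgeR). Mrc2, an endocytic collagen receptor, was at 31.7 TPM and at 3.28 and 6.97 TPM (-2.64, SE 0.55, adjusted p = 0.0389 in edgeR). At day 0 Itgb1 (-1.17) and Ddr1 (-1.40), a receptor tyrosine kinase that binds collagen, were called lower. These were 2 of 10 receptors, where 4.33% of all genes were lower and 1.11% higher. From day 0 to day 4 in the knockout lines Ddr1 rose (2.10) and Ddr2, the family member of mesenchymal cells, fell (-2.68). That was 1 of 10 receptors each way, where 9.56% of all genes rose and 5.16% fell.

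Of 5 collagenase and gelatinase genes tested, Mmp2 (-2.12) and Mmp14 (-1.75) were called lower at day 8 and none higher. Over all genes the shares were 4.86% and 5.01%. Mmp14, a membrane-bound collagenase, was at 141 TPM in wild type and at 30.2 and 46.4 TPM in G6 and H8. Mmp2, the gelatinase that Mmp14 activates, was at 94.2 TPM and at 19.3 and 20.9 TPM. Ctsk, a lysosomal collagenase of bone-resorbing cells, was called lower from day 0 to day 4 in the knockout lines. It was 1 of 5 tested, where 5.16% of all genes fell. Mmp8 was listed at 0 in every library.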
